A study of Homo sapiens with 6 samples.

Results

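The p53 pathway was described here through 31 genes, most of them direct transcriptional targets of the tumour suppressor p53, in BCWM1 cells labelled as mutated (3 samples) and in parental BCWM1 cells (3 samples). BCWM1 was established from human Waldenström macroglobulinemia, in which malignant B cells mature part of the way towards plasma cells. The series title names CXCR4, a chemokine receptor of B cells, as the mutated gene and writes the change as C1013G. How the mutated cells were made, whether they are a single clone, and whether a vector control was kept were not stated in the labels. Neither group is labelled with a drug or a DNA-damaging treatment. The members are every probe set whose platform annotation gives one of the 31 symbols as its only gene, which yielded 75 of 54613 probe sets and 29 of the 31 genes. FDXR and BTG2 were not analysed here.

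In unstressed cells p53 is kept scarce by the ubiquitin ligase MDM2, which is itself a p53 target and so closes a negative feedback loop. DNA damage and other stresses activate kinases that modify p53 and release it from MDM2, after which p53 binds paired half-sites in DNA and raises the transcription of its targets. These targets halt the cell cycle, repair DNA, adjust metabolism and redox state, restrain p53 or promote cell death. In lymphomas, loss of p53 function is a known mark of resistance to treatment. Several members, CCNG2 and SESN1 among them, are also known to answer to other factors such as the FOXO proteins.

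To show what p53 recognises, windows around the starts of 23 tested members in RefSeq (GRCh38.p14) were searched for the 10-base p53 half-site consensus. Each window ran from 250 bases before to 50 bases after a start, and the consensus reads the same on both strands. Stretches of 150 bases before a start are shown for AEN, FAS, MDM2, PLK2 and SESN1, and 30 bases for DDB2, where the match crosses the start. Capitals mark the 20-base full-site stretch in AEN, DDB2, FAS and MDM2 and the single half-site in PLK2 and SESN1.
SESN1: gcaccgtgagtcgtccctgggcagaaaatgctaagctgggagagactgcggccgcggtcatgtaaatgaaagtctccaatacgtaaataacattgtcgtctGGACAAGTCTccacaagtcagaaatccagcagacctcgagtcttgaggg
PLK2: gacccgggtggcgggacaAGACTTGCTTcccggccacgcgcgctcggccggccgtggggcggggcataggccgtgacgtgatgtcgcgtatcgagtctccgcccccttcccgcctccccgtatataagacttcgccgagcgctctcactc
DDB2: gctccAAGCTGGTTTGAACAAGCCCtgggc
MDM2: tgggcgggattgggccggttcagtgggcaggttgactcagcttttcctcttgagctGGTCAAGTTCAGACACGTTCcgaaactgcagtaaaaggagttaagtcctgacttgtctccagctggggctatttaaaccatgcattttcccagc
FAS: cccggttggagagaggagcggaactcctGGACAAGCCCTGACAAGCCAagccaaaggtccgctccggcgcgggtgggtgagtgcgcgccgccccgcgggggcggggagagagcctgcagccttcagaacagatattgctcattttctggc
AEN: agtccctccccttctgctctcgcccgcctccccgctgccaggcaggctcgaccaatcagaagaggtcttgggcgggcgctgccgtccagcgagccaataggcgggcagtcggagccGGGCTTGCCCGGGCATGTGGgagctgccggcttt

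The stretches lie at chr6:109008989-109009138 (minus strand), chr5:58460087-58460236 (minus strand), chr11:47214964-47214993, chr12:68808867-68809016, chr10:88991281-88991430 and chr15:88621190-88621339 (plus strand from DDB2 on). Those of SESN1, DDB2, MDM2 and FAS belong to a start downstream of the gene's first start in the same table. Of 33 windows of 23 tested members, 5 held the half-site (15.2%), against 6.63% of 35116 windows of all genes. The members on chromosome 8, TP53INP1 and RRM2B, were left out of this search, while the windows of all genes were not restricted by chromosome. No window was at hand for GADD45A, CMBL and PHLDA3. Of the same 33 windows, 5 matched the full 20-base consensus (2 half-sites with no spacer) in at least 18 letters, a minimum chosen after the matches were seen, against 0.649% of all windows. The half-sites of AEN and FAS and the first of 2 in the DDB2 window lie within these longer matches, and 2 of the 5 windows are overlapping ones of MDM2. The DDB2 stretch matched 19 letters, and those of MDM2, FAS and AEN matched 18. The genes with a match differed in their measured change: SESN1, PLK2 and DDB2 rose in mutated cells, while MDM2, FAS and AEN did not pass the test on the probe sets that stand for them. A match is a description of letters and not evidence of binding in these cells.

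The values are the authors' intensities per probe set on a linear scale. A gene was represented by its brightest tested probe set, and the dimmest 40% of probe sets by their mean log2(intensity + 16) over the 6 samples (a mean that corresponds to an intensity under about 18.01) were not tested. Changes were tested with limma on log2(intensity + 16) over all 32768 remaining probe sets, and a gene is said to have risen or fallen where the Benjamini-Hochberg adjusted p was under 0.05. Array medians were 30.93 to 31.83 in mutated and 28.46 to 29.13 in parental cells. No label says whether the 3 samples of a group came from separate cultures, so each p-value reflects the spread of these samples alone, and that spread may be technical.

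Of 28 members tested, 16 rose in mutated cells, none fell and 12 did not pass (limma with Benjamini-Hochberg adjustment). Over all 13644 genes tested by the same rule, 30.1% rose and 18.9% fell, beside 57.1% and 0% of the tested members. The members were chosen with earlier results of these data known, which limits this contrast. At an unadjusted p under 0.05 the count of falling members was 0, and with limma's trend and robust options it was 1 (CMBL). PLK2 reached the test through its mutated samples, its parental mean lying under the filter, and so had to differ. The median log2 change was 0.31 over the tested members and 0.04 over all tested genes. Most changes were small: 11 of the 16 rises lay between 0.3 and 0.6 on the log2 scale, and only PLK2 passed 1, as 3.77% of all genes did upward and 1.55% downward. In each of the 16 genes the 3 mutated values all lay above the 3 parental values, and counting MDM2, CDKN1A and XPC as well, 19 members were separated in that direction, beside 36.3% of all genes. CMBL was the 1 member whose mutated values all lay lower, beside 24.8% of all genes. The share of calls that were higher in mutated cells over all genes depends on the scaling, being 61.5% here, 49.6% with quantile normalization and 46.1% with median centring. The members that rose numbered 17 and 15 under those scalings, against 25.1% and 22.4% of all genes. With no filter on dim probe sets SPATA18 fell, so the count of 0 falls holds only among the members bright enough to be tested.

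**Figure D1:**
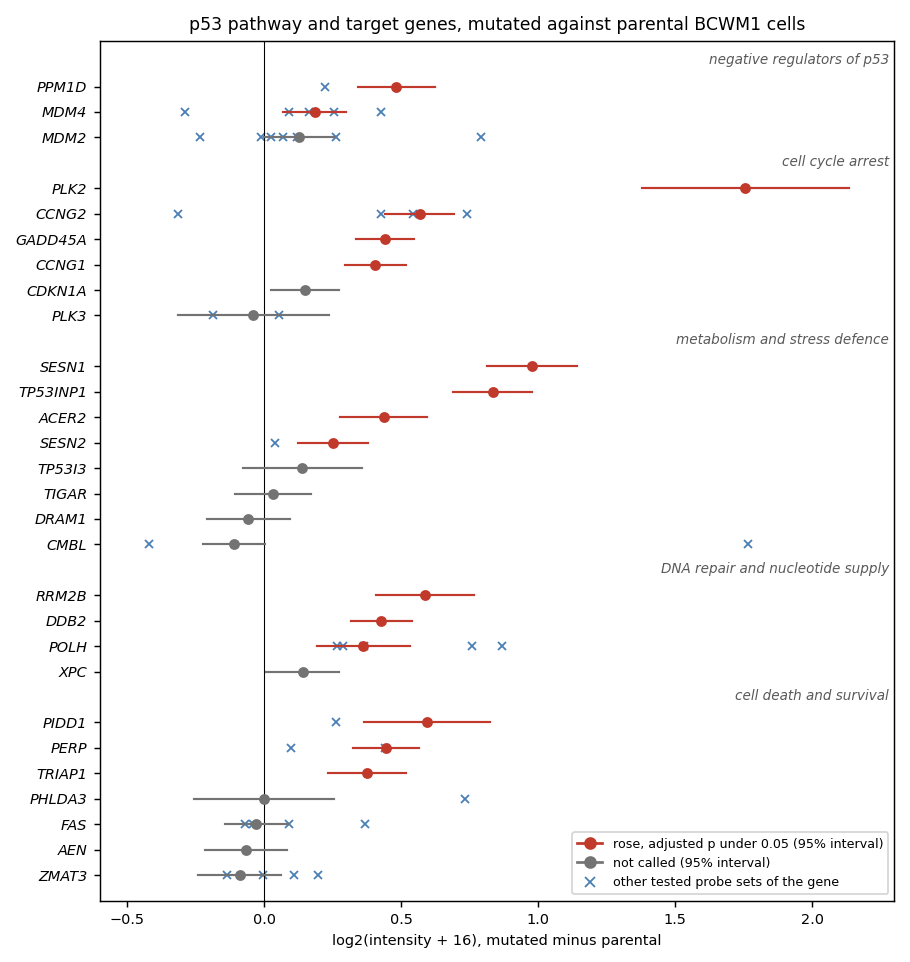
Log2 change of each tested member, mutated minus parental (horizontal axis, log2(intensity + 16) units), grouped by role. Circles are the probe sets that stand for the genes with 95% intervals from limma, red where the gene rose, and crosses are the other tested probe sets. PLK2 (1.76), SESN1 (0.98) and TP53INP1 (0.83) lie farthest to the right, and MDM2 and CMBL have crosses far from their circles.

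Of the 3 negative regulators of p53, PPM1D and MDM4 rose, beside 30.1% of all genes. PPM1D, the phosphatase that removes activating phosphates from p53 and its upstream kinases, read 685, 681 and 682 in mutated cells, against 459.6, 519 and 475 in parental cells. The groups were apart by more than the parental spread, with a log2 change of 0.48 (SE 0.059, limma adjusted p = 0.0008). Its other tested probe set was dim, with a parental mean under the filter, and overlapped between the groups. There the change was 0.22 and did not pass (limma adjusted p = 0.086). MDM4, an MDM2 relative that covers the activation domain of p53, read 2118, 2011 and 1993 in mutated cells, against 1794, 1782 and 1804 in parental cells on its brightest probe set. The parental values were tight and the mutated ones lay just above them, a rise of 0.18 (SE 0.048, limma adjusted p = 0.019). Of its 6 tested probe sets 3 rose and none fell, with changes from −0.29 to 0.42. The MDM4 call was the least secure of the 16, since it was lost without mutated replicate 1 (limma adjusted p = 0.063), without parental replicate 1 (0.055) or 2 (0.054), with median centring (0.14), as the mean of its probe sets (0.13) and with only the probe sets that lack the suffixes _s_at and _x_at, whose probes can match more than one transcript (0.20).

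MDM2, the ubiquitin ligase and main antagonist of p53, gave different answers on its 8 tested probe sets. The brightest read 3332, 3354 and 3589 in mutated cells, against 3111, 3057 and 3227 in parental cells, without overlap, but with a log2 change of only 0.13 (95% interval 0.00 to 0.26) it did not pass (limma adjusted p = 0.092). The second brightest, with values of 2926, 2982 and 2751 in mutated cells, against 2681, 2638 and 2934 in parental cells, overlapped between the groups. A dimmer probe set of the suffix _s_at read 159, 153 and 142 in mutated cells, against 85.8, 76.9 and 79.3 in parental cells, a log2 change of 0.79 (SE 0.062, limma adjusted p = 0.00013), a 1.88-fold difference between the mean intensities in which every mutated sample exceeded every parental one. The other 5 tested probe sets did not pass, with changes from −0.24 to 0.26. As the mean of its probe sets MDM2 passed (log2 change 0.14, limma adjusted p = 0.038). Which transcripts each probe set reads was not analysed here.

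Members that halt the cell cycle rose in 4 of 6 cases, beside 30.1% of all genes, and 1 of the 4 is PLK2, which had to differ. PLK2, a polo-like kinase induced by p53 after damage, had the largest change among the probe sets that stand for the genes. It read 76.8, 96.5 and 80.5 in mutated cells, against 14.2, 7.86 and 20.3 in parental cells, so the parental samples lay below the array medians and the mutated ones above them. The change was 1.76 on the log2(intensity + 16) scale (SE 0.16, limma adjusted p = 0.00022) and 5.99-fold between the mean intensities, and it was 2.58 with a pseudocount of 1 and 0.93 with 64. The gene passed the filter on dim probe sets through its mutated samples. PLK3, its close relative, did not follow: its brightest probe set read 152, 151 and 113 in mutated cells, against 132, 142 and 151 in parental cells, with a log2 change of −0.04 (95% interval −0.32 to 0.23). A dimmer PLK3 probe set fell slightly (−0.19, limma adjusted p = 0.027).

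The G-type cyclins both rose. CCNG2, tied to exit from the cell cycle, read 4092, 3885 and 4027 in mutated cells, against 2577, 2759 and 2752 in parental cells, with a log2 change of 0.57 (SE 0.052, limma adjusted p = 0.00025). Another pair of its probe sets rose as well, by 0.54 and 0.74, while a dim one fell (−0.31, limma adjusted p = 0.011). CCNG1, a classical p53 target that modulates MDM2, read 6325, 6403 and 6398 in mutated cells, against 4723, 4959 and 4753 in parental cells, a rise of 0.41 (SE 0.046, limma adjusted p = 0.00062). GADD45A, a growth arrest and stress sensor protein, stood at 3419.9, 3413 and 3324 in mutated cells, against 2519, 2476 and 2472 in parental cells. Its groups were tight and far apart, and the log2 change was 0.44 (SE 0.044, limma adjusted p = 0.00036).

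CDKN1A encodes p21, the inhibitor of cyclin-dependent kinases through which p53 stops the cycle, and lay at the edge of the test. Its only probe set was bright, reading 4082, 4239 and 3932 in mutated cells, against 3671, 3775 and 3593 in parental cells. The 3 mutated values exceeded the 3 parental ones, yet the log2 change was 0.15 (95% interval 0.03 to 0.27) and the adjusted p 0.052 by limma. Under 7 of 16 alternatives it passed, among them quantile normalization (limma adjusted p = 0.036), array weights (0.033) and leaving out mutated replicate 3 (0.044), with changes from 0.070 to 0.18 over all of them. The interval of CDKN1A ends below that of SESN1, whose lower bound was 0.81.

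**Figure D2:**
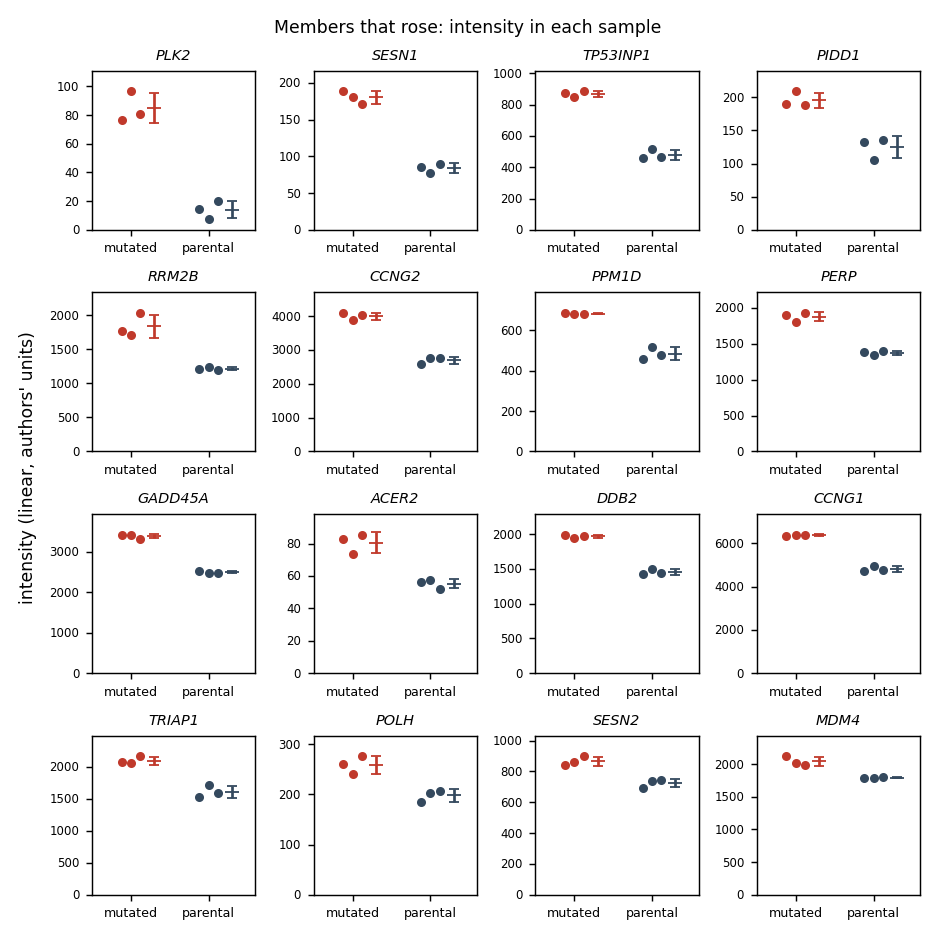
Intensity (vertical axis, linear scale from 0) of the 16 members that rose, on the probe set that stands for each gene. Points are single samples and the bars beside them the mean ± SD (n = 3 each); in each panel the 3 mutated points sit above the 3 parental ones, by a wide margin in PLK2, SESN1 and TP53INP1 and by a narrow one in MDM4.

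In the group of metabolic and stress defence genes 4 of 8 tested members rose, beside 30.1% of all genes. SESN1, a sestrin that restrains the growth kinase mTORC1 and limits oxidative stress, read 188, 181 and 171 in mutated cells, against 84.8, 76.7 and 90.2 in parental cells. The mutated samples were at about 2.15 times the parental mean, with a log2 change of 0.98 (SE 0.068, limma adjusted p = 7.6e-05). SESN2, the sestrin known as a leucine sensor, rose less: its brighter probe set read 842, 860.4 and 898 in mutated cells, against 695, 736 and 746 in parental cells, a log2 change of 0.25 (SE 0.053, limma adjusted p = 0.0085), and its other probe set gave 0.04 and did not pass. TP53INP1, a nuclear stress protein that promotes p53 phosphorylation and autophagy, stood at 873, 849 and 885 in mutated cells, against 461, 518 and 465 in parental cells. That is a rise of 0.83 (SE 0.061, limma adjusted p = 9.2e-05), and its other pair of probe sets was too dim to test. ACER2, a Golgi ceramidase that makes sphingosine, was dimmer, at 82.7, 73.4 and 85.5 in mutated cells, against 56.2, 57.6 and 52.1 in parental cells, and rose by 0.44 (SE 0.066, limma adjusted p = 0.0022).

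TIGAR, which lowers glycolytic flux, averaged 905 ± 47.2 in mutated and 885 ± 26.3 in parental cells (SD, n = 3 each), a change of 0.03 (95% interval −0.11 to 0.17). DRAM1, a lysosomal membrane protein of autophagy, averaged 1342 ± 70.5 in mutated and 1398 ± 70.3 in parental cells (SD, n = 3 each), a change of −0.06 (95% interval −0.21 to 0.09). TP53I3, a quinone oxidoreductase of the redox response, gave 0.14 (95% interval −0.08 to 0.36). These 3 genes overlapped between the groups and did not pass.

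CMBL, a hydrolase, had 3 tested probe sets that went 3 ways. The brightest, of the suffix _x_at, read 7008, 6759 and 7019 in mutated cells, against 7366, 7392 and 7681 in parental cells, a change of −0.11 that did not pass (limma adjusted p = 0.1). A dim probe set read 69.4, 74.3 and 61.7 in mutated cells, against 12.7, 5.60 and 8.58 in parental cells, a difference of 1.77 on the log2 scale. Like PLK2, this probe set reached the test only through its mutated samples and so had to differ. Another dim one fell, reading 17.2, 21.3 and 15.7 in mutated cells, against 28.7, 32.3 and 27.6 in parental cells (log2 change −0.42, limma adjusted p = 0.0049). On the log2 scale the mutated mean of this falling probe set lay just under the filter. It thus reached the test through its parental samples and had to read lower in mutated cells. The log2 change of CMBL was 1.77 without the suffixes _s_at and _x_at and 0.41 as the mean of its probe sets, both resting on the dim probe set that rose. With median centring CMBL fell by 0.19. SPATA18, a mitochondrial quality control protein also called Mieap, was left out as dim. Its brighter probe set read 1.79, 5.19 and 1.46 in mutated cells, against 15.1, 13.3 and 18.8 in parental cells, with every mutated value below every parental one, and without the filter its log2 change was −0.76 (SE 0.10, limma adjusted p = 0.0031).

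Of the 4 genes of DNA repair and nucleotide supply, 3 rose, beside 30.1% of all genes. RRM2B, the ribonucleotide reductase subunit that p53 induces to supply deoxynucleotides outside S phase, read 1768, 1705 and 2031 in mutated cells, against 1213, 1236 and 1189 in parental cells. Mutated replicate 3 was the highest, the groups were apart, and the log2 change was 0.59 (SE 0.074, limma adjusted p = 0.00096). DDB2, which finds ultraviolet damage for nucleotide excision repair, stood at 1994, 1941 and 1969 in mutated cells, against 1429, 1504 and 1445 in parental cells, with a log2 change of 0.43 (SE 0.047, limma adjusted p = 0.00052). POLH, the translesion polymerase eta, read 259.9, 241 and 276 in mutated cells, against 184, 202 and 208 in parental cells on its brightest probe set, a log2 change of 0.36 (SE 0.071, limma adjusted p = 0.0062). All 6 POLH probe sets were higher on average in mutated cells, 4 of them past the threshold, with changes from 0.27 to 0.87. XPC, the damage recognition factor, read 1048, 1103 and 1049 in mutated cells, against 944, 1023 and 936 in parental cells. Its groups did not overlap, but the change of 0.14 (95% interval 0.00 to 0.27) did not pass (limma adjusted p = 0.083).

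Of 7 genes of cell death and survival, 3 rose (42.9%) and none fell, beside 30.1% and 18.9% of all genes. PIDD1, the scaffold of the PIDDosome, which activates a caspase, read 189.7, 209 and 188 in mutated cells, against 132, 106 and 136 in parental cells, a log2 change of 0.59 (SE 0.096, limma adjusted p = 0.0027), and its other probe set rose by 0.26. PERP, a tetraspan membrane protein of p53-dependent apoptosis and of cell junctions, stood at 1902, 1802 and 1927 in mutated cells, against 1385, 1345 and 1395 in parental cells, with a log2 change of 0.44 (SE 0.050, limma adjusted p = 0.00058). A second PERP probe set rose by 0.44, but the only tested one without the suffixes _s_at and _x_at was dim and gave 0.10 (limma adjusted p = 0.73). TRIAP1, a small survival protein that moves phospholipids in mitochondria, read 2063, 2048 and 2159 in mutated cells, against 1525, 1709 and 1595 in parental cells, a rise of 0.37 (SE 0.059, limma adjusted p = 0.0026).

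FAS, the death receptor CD95, was bright and overlapped between the groups, reading 2603, 2566 and 2636 in mutated cells, against 2727, 2669.6 and 2570.0 in parental cells. Its change of −0.03 had a narrow 95% interval of −0.14 to 0.09, and 3 more of its 5 probe sets did not pass, while a dim one rose (0.37, limma adjusted p = 0.018). AEN, a nuclease of apoptosis, gave −0.07 (95% interval −0.22 to 0.08). ZMAT3, an RNA-binding zinc finger protein, gave −0.09 on its brightest probe set (95% interval −0.24 to 0.06), and 1 of its 5 probe sets rose (0.19, limma adjusted p = 0.015). PHLDA3, which blocks AKT at the membrane, read 115, 144 and 127 in mutated cells, against 125, 114 and 147 in parental cells, a change of −0.0014 (95% interval −0.26 to 0.26). Its second, dimmer probe set rose, reading 45.2, 55.5 and 46.2 in mutated cells, against 21.9, 23.4 and 23.7 in parental cells (0.73, limma adjusted p = 0.00033), and as the mean of both PHLDA3 rose by 0.37 (limma adjusted p = 0.0096).

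Counted over probe sets instead of genes, 30 of 67 tested rose (44.8%) and 3 fell, beside 30.9% and 16.6% of all 32768 probe sets. The 3 that fell belong to CCNG2, PLK3 and CMBL. Among the rises, those of the PLK2 probe set and of 1 CMBL probe set passed the filter through mutated samples only. The CMBL probe set that fell passed it through parental samples only. These calls had to differ in their direction and limit the counts. Of 13 members with more than 1 tested probe set, 8 had probe sets of both signs. Among the 7 of these 13 that rose, another probe set also rose in 5 (CCNG2, MDM4, PERP, PIDD1 and POLH). Among the 6 that did not pass, a dimmer probe set rose in 5 (MDM2, CMBL, FAS, PHLDA3 and ZMAT3). The call of those 5 genes thus depends on the probe set that stands for them, though in CMBL the rising probe set is the one that had to differ.

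**Figure D3:**
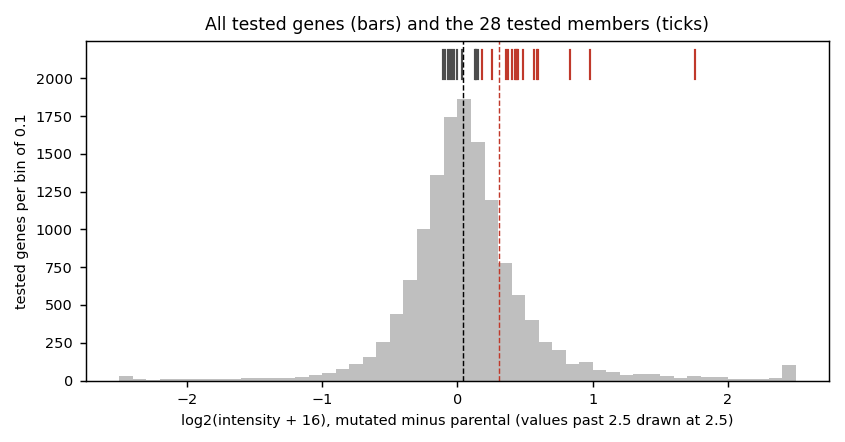
Distribution of log2 changes, mutated minus parental, over all 13644 tested genes (grey bars, 0.1 wide) with the 28 tested members as ticks above, red where the member rose. Dashed lines mark the medians, 0.04 for all genes (black) and 0.31 for the members (red); the members reach from −0.11 to 1.76.

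The genes next to the members on the chromosomes were compared as a description, taking the 5 tested genes on each side in RefSeq order. Of the 160 neighbours of the 16 rising members, 49 rose (30.6%) and 28 fell (17.5%), close to the shares of all genes. Around TP53INP1 and RRM2B, both on chromosome 8, 4 and 1 of 10 neighbours rose. The median change of the neighbours was 0.06 around TP53INP1, 0.01 around RRM2B, 0.01 around SESN1 and 0.30 around PLK2. The neighbours of PLK2 rose in 4 of 10 cases.

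Genes that act on p53 moved in both directions: of 22 tested, 6 rose and 4 fell, beside 30.1% and 18.9% of all genes. CDKN2A, whose locus encodes p16 and the MDM2 inhibitor ARF, read 183, 185 and 203 in mutated cells, against 98.0, 94.5 and 90.2 in parental cells, with every mutated value above every parental one (0.90, limma adjusted p = 6e-05). Which of its products the probe set reads was not analysed here. RCHY1, a ubiquitin ligase of p53, rose by 0.40, the damage kinase gene ATM by 0.27 and the p53 kinase gene TP53RK by 0.24. HIPK2, a kinase that phosphorylates p53 for apoptosis, fell to 1462, 1382 and 1361 in mutated cells, against 2752, 2812 and 2788 in parental cells (−0.98, limma adjusted p = 1.8e-05). PSME3, a proteasome activator that favours p53 turnover by MDM2, fell by 0.45, the checkpoint kinase gene CHEK1 by 0.32 and USP7, which deubiquitinates MDM2 and p53, by 0.29 on the log2 scale.

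Targets that act in apoptosis, for or against it, outside the 31 members, rose in 5 of 17 and fell in 3. These counts are near the shares of all genes (30.1% and 18.9%) and include TNFRSF10D and BCL2L1, which oppose cell death. BAX, the mitochondrial pore former, read 770.1, 797 and 784 in mutated cells, against 611, 567 and 539 in parental cells (0.44, limma adjusted p = 0.0013). APAF1, the apoptosome scaffold, rose by 0.47, the decoy death receptor gene TNFRSF10D by 0.57 and EI24 by 0.25. BCL2L1, which encodes the survival protein BCL-XL, read 352, 421 and 389 in mutated cells, against 618, 678 and 686 in parental cells (−0.75, limma adjusted p = 0.00044). CDIP1 fell by 0.39 and TRAF4 by 0.35 on the log2 scale. PMAIP1, the BH3 domain protein NOXA, was very bright and gave −0.01 (limma adjusted p = 0.92).

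In a wider list of other p53 targets, 32 of 72 tested rose (44.4%), 13 fell (18.1%) and 27 did not pass, beside 30.1% and 18.9% of all genes. With quantile normalization 27 rose and 18 fell, beside 25.1% and 25.5% of all genes. COQ8A, of coenzyme Q synthesis, averaged 312 ± 8.67 in mutated and 149 ± 6.56 in parental cells (SD, n = 3 each; 0.99, limma adjusted p = 2.3e-05). ENC1 (0.83), IKBIP (0.76) and ORAI3 (0.76), a calcium channel subunit, rose as well. SULF2, an extracellular sulfatase, averaged 61.8 ± 5.46 in mutated and 450.2 ± 17.6 in parental cells (SD, n = 3 each; −2.59, limma adjusted p = 1.2e-06). FHL2 (−1.78), PRDM1, a plasma cell factor that is also among the B lineage markers (−1.59) and the potassium channel gene KCNN4 (−0.94) also fell. In this list 3 genes fell and none rose by a log2 value of 1 or more.

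Of 25 cell cycle genes that p53 represses through p21, 14 rose (56.0%), none fell and 11 did not pass, beside 30.1% and 18.9% of all genes that rose and fell, while 1 (BUB1) was lower at an unadjusted p under 0.05. BIRC5, survivin, rose by 0.51, the phosphatase gene CDC25C by 0.39, the mitotic kinase gene AURKB by 0.38 and TTK by 0.31. CDK1 read 4675, 4700.2 and 4617 in mutated cells, against 4049.7, 4105 and 4048 in parental cells (0.20, limma adjusted p = 0.01) and CCNB1 rose by 0.14. BUB1 was lower in every mutated sample, at 2077, 2212 and 2292 in mutated cells, against 2364, 2484 and 2562 in parental cells, and did not pass (−0.17, limma adjusted p = 0.054). With median centring 9 of the 25 rose and BUB1 fell, beside 22.4% and 26.1% of all genes.

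**Figure D4:**
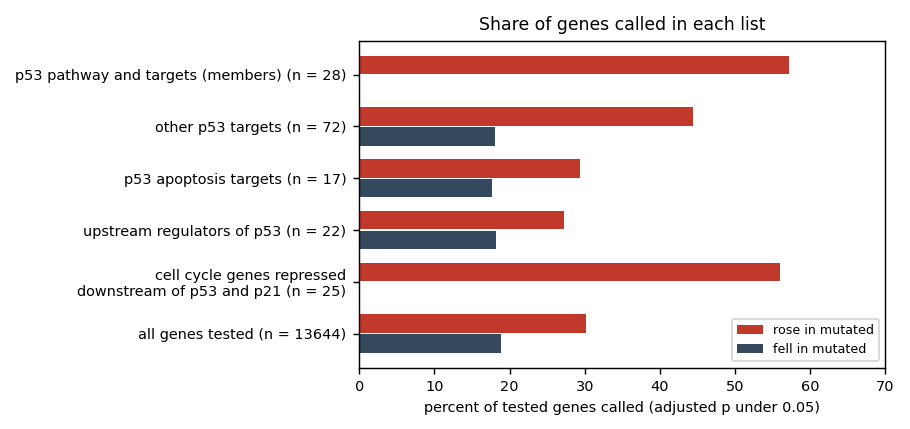
Percent of tested genes called in each list (horizontal axis), rises in red above falls in dark blue. The members (57.1% and 0%) and the cell cycle genes repressed downstream of p53 and p21 (56.0% and 0%) have the highest shares of rises, beside 30.1% and 18.9% over all 13644 genes. The members and lists were chosen with earlier results of these data known.

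The tissue label was checked against markers. All 11 B lineage markers with a probe set lay above the median of every array, with summed intensities of 27583 to 29186 in mutated and 31674 to 32856 in parental cells. Of them 6 fell (54.5%) and 2 rose (18.2%), beside 18.9% and 30.1% of all genes. TNFRSF17 (−1.89), PRDM1 (−1.59), BLK (−1.57), SDC1 (−0.87), CD38 (−0.65) and CD22 (−0.41) fell on the log2 scale. CD79B (0.63) and CD79A (0.23) rose, and MS4A1, PAX5 and IRF4 did not pass. Markers of T and NK cells summed to 171 to 212 in mutated and 174 to 214 in parental cells over 10 genes. Among these, NKG7 alone lay above the median of every array, while CD3E, CD3D and CD3G lay under the median of each. Epithelial markers summed to 111 to 143 in mutated and 133 to 208 in parental cells over 8 genes. Myeloid markers summed to 2807 to 2921 in mutated and 779 to 830 in parental cells over 8 genes, carried by S100A9, with CD14 and LYZ under the median. Stromal markers summed to 1039 to 1065 in mutated and 1512 to 1701 in parental cells over 10 genes, carried by COL1A1 and ACTA2. DCN also lay above the median of every array, while COL1A2, COL3A1 and LUM lay under it. The part of these markers in the changes of the p53 genes was not tested. In bulk samples a larger share of cells that express a gene and more of its RNA per cell cannot be told apart.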

How the data were processed

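Total RNA of 3 mutated and 3 parental samples was measured on microarrays after conversion to biotin-labelled cRNA, per the labels' protocols. The authors deposited 1 linear intensity value for each probe set and sample, and 0 value columns belong to other samples. No source used here names the summary method, background correction or normalization. Probe sets were named from GEO's platform annotation: 41091 have 1 symbol, 1801 several and 11721 none, and none was named from several. Of those with 1 symbol, 41037 matched a RefSeq gene table (GRCh38.p14) by Entrez ID and 0 symbols changed.

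Values were taken as log2(intensity + 16), which understates changes of dim genes, and group was fitted alone with limma 3.58.1 (lmFit, eBayes, two-sided tests) under R 4.3.3. P-values were adjusted over 32768 probe sets. Within a group, arrays correlated at 0.994 to 0.996 over probe sets, and between groups at 0.967 to 0.97 (Pearson). The number of arrays limits the precision. The files and labels name no batch. Of 200 simulated shifts among 32768 probe sets for the mutated against parental comparison, 46% of those of 0.5 and 85% of those of 1 were recovered, with 4 false calls. In the data themselves 10120 probe sets rose and 5433 fell. The adjustment was therefore stricter in the simulation, and its recovery does not give the sensitivity of the real comparison. The members and lists were chosen with earlier results of these data known. All members are named, with up to 4 called genes a direction from each other list by smallest adjusted p. CDK1, CCNB1, BUB1 and PMAIP1 were named after their values were seen. Promoter sequences are RefSeq's (GRCh38.p14). Alternatives were quantile normalization, median centring, other filters and pseudocounts, eBayes options, array weights, the replicate block, other probe set rules and leaving out each sample. Python 3.11.15 with matplotlib 3.10.9 made the figures.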

Additional observations from a re-analysis of the deposited data

Results flagged for a closer look

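A pair of MDM2 probe sets outside the test, left out as dim, read higher in every mutated than in every parental sample. The brighter averaged 21.4 ± 5.05 in mutated and 11.5 ± 1.64 in parental cells (SD, n = 3 each), under the median of every array. The dimmer averaged 7.67 ± 2.22 in mutated and 4.34 ± 1.35 in parental cells. Values this low have little order.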

How the results depend on the processing

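Of 17 alternatives, all kept between 15 and 19 rising members except the exclusion of _s_at and _x_at probe sets, which tested 22 members and called 13. Of the 16 rising members, 14 passed under every alternative that tested them, the exceptions being MDM4 and PERP. With no filter, median centring or eBayes trend and robust options 1 member fell (SPATA18 in the first, CMBL in the other two). The median change of the members was 0.25 with no filter and with the dimmest 60% left out, 0.36 as the mean over probe sets, 0.23 with median centring, 0.22 with quantile normalization, 0.26 with a pseudocount of 64, 0.37 without those suffixes and 0.27 to 0.32 when a sample was left out. Falling member probe sets numbered 5 with median centring or quantile normalization and 1 with the dimmest 60% left out. With median centring 7 upstream regulators, 5 apoptosis targets and 1 cell cycle gene fell, while 3 apoptosis targets and 9 cell cycle genes rose. As the mean over probe sets 8 upstream regulators fell. In the cell cycle list 1 gene, BUB1, fell with array weights, the replicate block, the dimmest 60% left out, eBayes trend and robust options, a pseudocount of 64 and quantile normalization. Leaving out a sample gave 3 to 5 falling apoptosis targets (5 without mutated replicate 3) and 0 to 1 falling cell cycle genes. CMBL turned to 0.41 as the mean and 1.77 without the suffixes, FAS to 0.37 without the suffixes and PHLDA3 to 0.37 as the mean, in each case because another probe set entered (for CMBL one that passed the filter through its mutated samples only). Causes of the other shifts were not tested. The replicate numbers were not taken to pair the samples, since no label says that they do. Deviations of same-numbered samples correlated weakly, at 0.11, 0.027 and 0.11, but higher than those of differently numbered samples, at −0.11 to 0.0028. Whether the numbers mark a shared step was not tested. With the replicate block 16 members rose, and every member's call was the same as without it. Dim members, PLK2 in parental cells among them, are the least precise.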
